A study of Mus musculus with 32 samples.

Results

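The genes described here make, degrade or directly respond to cyclic AMP and cyclic GMP: adenylyl cyclases, guanylyl cyclases, phosphodiesterases, and the subunits of cyclic AMP-dependent kinase (kinase A) and cyclic GMP-dependent kinase (kinase G). They were defined by symbol, as every protein-coding gene named Adcy1 to Adcy10, Gucy1 or Gucy2, Pde1 to Pde11, Prkg1 or Prkg2. Protein-coding genes with a catalytic or regulatory kinase A subunit symbol were added. The set was chosen with earlier results of these data known, so the tests below may not be independent of the choice. The pattern found 49 genes among the 51912 identifiers of the count table, 21870 of which were protein coding. They were 22 phosphodiesterases, 10 adenylyl cyclases, 9 guanylyl cyclases, 6 kinase A subunits and 2 kinase G genes. A count above 0 was present in every library for 30 of them, and none was without counts altogether.

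RNA was sequenced from sorted nuclei of the longitudinal muscle and myenteric plexus, the nerve network that drives gut movement, of C57BL/6 mice kept specific pathogen-free at the University of Bern or the Francis Crick Institute. All mice had received an intravenous adeno-associated virus, AAV9-CaMKII-EGFPKASH, 5 weeks earlier. It puts EGFP on the nuclear envelope of cells in which the CaMKII promoter is active. Nuclei with EGFP are called neuronal and those without it non-neuronal, as in the labels. Facility (Bern, Crick), segment (colon, small intestine or SI) and sort (EGFP+, EGFP-) made 8 groups of 4 libraries, written here as Bern_ColPos, Bern_SiPos, Crick_ColPos and Crick_SiPos for neuronal nuclei and Bern_ColNeg, Bern_SiNeg, Crick_ColNeg and Crick_SiNeg for the rest. The neuronal sort is limited to neurons that the virus reached and in which this promoter works, and the non-neuronal sort can keep neurons that it missed. The labels give neither age nor sex, and do not say whether libraries came from separate animals or from pools, so p-values measure only the spread between libraries, which may be technical.

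Cyclic AMP is made by adenylyl cyclases, most of which sit in the plasma membrane and answer to G proteins, and cyclic GMP is made by a nitric oxide-sensitive soluble enzyme of 1 alpha and 1 beta subunit or by membrane receptors for peptides. Phosphodiesterases break both down, each family with its own substrate preference and regulation, and kinases A and G carry the signal to ion channels, contractile proteins and transcription factors. In the gut wall, nitric oxide from inhibitory motor neurons relaxes muscle through cyclic GMP, acting on smooth muscle and on interstitial cells of Cajal, the pacemaker cells between nerve and muscle. In enteric neurons, cyclic AMP raises excitability.

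Depth differed between the facilities: a Bern library held 2394481 to 4618379 counts in total, a Crick library 3788120 to 8350833. Bern libraries held counts for 15641 to 22406 genes and Crick libraries for 25675 to 34994, so low genes were less often seen in Bern. Mitochondrially encoded transcripts took 0.42% to 23.58% of counts. Of the 13 pan-neuronal markers, all 13 were higher in the EGFP+ sort, with summed levels of 2452 to 5079 CPM in EGFP+ and 42.2 to 1637 CPM in EGFP- libraries. CPM is the usual count relative to library size, here with the size scaled over all 32 libraries by the trimmed mean of M values (TMM). The 4 Bern_ColNeg libraries (725 to 1637 CPM) and Bern_SiNeg 1 (749 CPM) were the highest EGFP- libraries in those neuronal markers. Fits without 6 libraries in doubt (Crick_SiNeg 2, Crick_SiPos 2, Bern_ColNeg 1 and 2, Crick_ColNeg 3 and Bern_SiNeg 1, taken from an earlier description of these data) are cited where they change a call. The values here set apart Crick_SiNeg 2 and Crick_SiPos 2 in mitochondrial share (23.58% and 15.99%) and Bern_ColNeg 1 and 2 and Bern_SiNeg 1 in neuronal markers. Crick_ColNeg 3 was not high in mitochondrial share (6.78%), neuronal sum (171.9 CPM) or macrophage sum (191.1 CPM) within its group. In neuronal nuclei these fits leave out Crick_SiPos 2 alone. These are whole populations, so fewer nuclei of a type and less RNA per nucleus cannot be told apart.

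The sequences before the start sites of 4 genes that recur below are shown because Pde4c and Pde1c had the largest changes between segments in neurons of both facilities together, Gucy1a2 separated the sorts, and Prkar1a is the highest kinase A gene of neuronal nuclei. Each is the 250 bases before a RefSeq start site (GRCm38.p6), read 5′ to 3′ on the gene's strand. Capitals mark the cyclic AMP response element TGACGTCA or its shorter core TGACG, searched on both strands (the core lies within the full element). In Prkar1a the full element alone is in capitals, and a further core upstream of it is left in lower case. Pde4c is at chr8:70723814-70724063 on the plus strand, with 1 start site listed. Pde1c is at chr6:56362393-56362642 on the minus strand, 1 of 3 listed. Gucy1a2 is at chr9:3532099-3532348 on the plus strand, 1 listed, and Prkar1a at chr11:109650699-109650948 on the plus strand, 1 of 6 listed. The Prkar1a stretch was chosen as the first listed with the full element, which 2 of its 6 promoters held.
Pde4c: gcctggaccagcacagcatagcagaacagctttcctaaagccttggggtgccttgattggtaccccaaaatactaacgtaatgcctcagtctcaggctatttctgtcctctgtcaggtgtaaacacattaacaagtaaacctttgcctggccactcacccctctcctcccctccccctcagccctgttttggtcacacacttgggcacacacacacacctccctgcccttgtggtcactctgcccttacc
Pde1c: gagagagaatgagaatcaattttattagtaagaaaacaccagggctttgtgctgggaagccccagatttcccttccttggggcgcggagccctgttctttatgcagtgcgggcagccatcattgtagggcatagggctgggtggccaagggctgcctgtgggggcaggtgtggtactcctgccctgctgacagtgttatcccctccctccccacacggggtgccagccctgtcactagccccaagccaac
Gucy1a2: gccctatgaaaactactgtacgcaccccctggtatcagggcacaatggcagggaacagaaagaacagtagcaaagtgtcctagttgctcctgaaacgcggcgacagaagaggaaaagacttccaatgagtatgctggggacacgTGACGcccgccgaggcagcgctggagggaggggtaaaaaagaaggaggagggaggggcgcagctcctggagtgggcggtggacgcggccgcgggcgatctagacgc
Prkar1a: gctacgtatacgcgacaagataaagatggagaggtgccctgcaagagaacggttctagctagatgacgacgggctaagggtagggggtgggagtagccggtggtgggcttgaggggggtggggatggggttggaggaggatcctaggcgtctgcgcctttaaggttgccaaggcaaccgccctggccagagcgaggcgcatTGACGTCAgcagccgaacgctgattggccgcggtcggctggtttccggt

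Neither motif lies in the Pde4c or Pde1c stretch. Over windows of 300 bases (250 before and 50 after the start), the full element was in 1.79% of all 32851 promoters. Among the 39 of 49 genes with a promoter in the RefSeq table, it was in 2 of 79 promoters (2.53%), both of Prkar1a. By gene this was 1 of 39 (2.56%), against 2.03% of all genes. The core was in 20.8% of all promoters and in 18 of the 79 promoters of these genes (22.8%). Counted by gene it was in 23% of all genes and in 16 of these 39 (41%), which have more listed promoters per gene. A match is a description of letters, not a binding site. Which start site was used in these nuclei was not measured.

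Levels per gene length, as mean CPM per kilobase of exon, placed Prkar1a, the regulatory subunit RI alpha of kinase A, highest of the 49 genes in neuronal nuclei, at 36.3 ± 9.98 (SD, n = 16). The cyclic GMP-specific phosphodiesterase Pde5a (29.1 ± 6.05) and the cyclic GMP-inhibited phosphodiesterase Pde3a (28.5 ± 18.6) came next, then the soluble guanylyl cyclase subunits Gucy1a1 (26.4 ± 11.2), Gucy1b1 (21.4 ± 9.01) and Gucy1a2 (21.3 ± 4.12). The SDs of these neighbours exceed the steps between them. The means join colon and SI, so the order within a segment can differ, and the length counts all annotated exons of a gene. In plain CPM Prkar1a (mean 156.9) was below Pde3a (362.7), Pde5a (286.5), Pde1c (222.4), Pde10a (189.8), Gucy1a1 (183.8) and Pde4b (171.9) in neuronal nuclei. In non-neuronal nuclei the order per kilobase began with Gucy1b1 (36.4 ± 19.8), Pde3a (27.7 ± 8.68), Gucy1a1 (23.7 ± 11.3), Pde5a (21.5 ± 6.06) and Prkar1a (16.9 ± 8.54). Soluble guanylyl cyclase and the 2 phosphodiesterases Pde3a and Pde5a were thus near the top in both sorts. Lowest per kilobase were Gucy2d (0.0178), Adcy4 (0.0351) and Gucy2f (0.0751) in neuronal nuclei, and Pde6c (0.0537), Gucy2d (0.0544) and Gucy1b2 (0.0603) in non-neuronal ones.

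**Figure D1:**
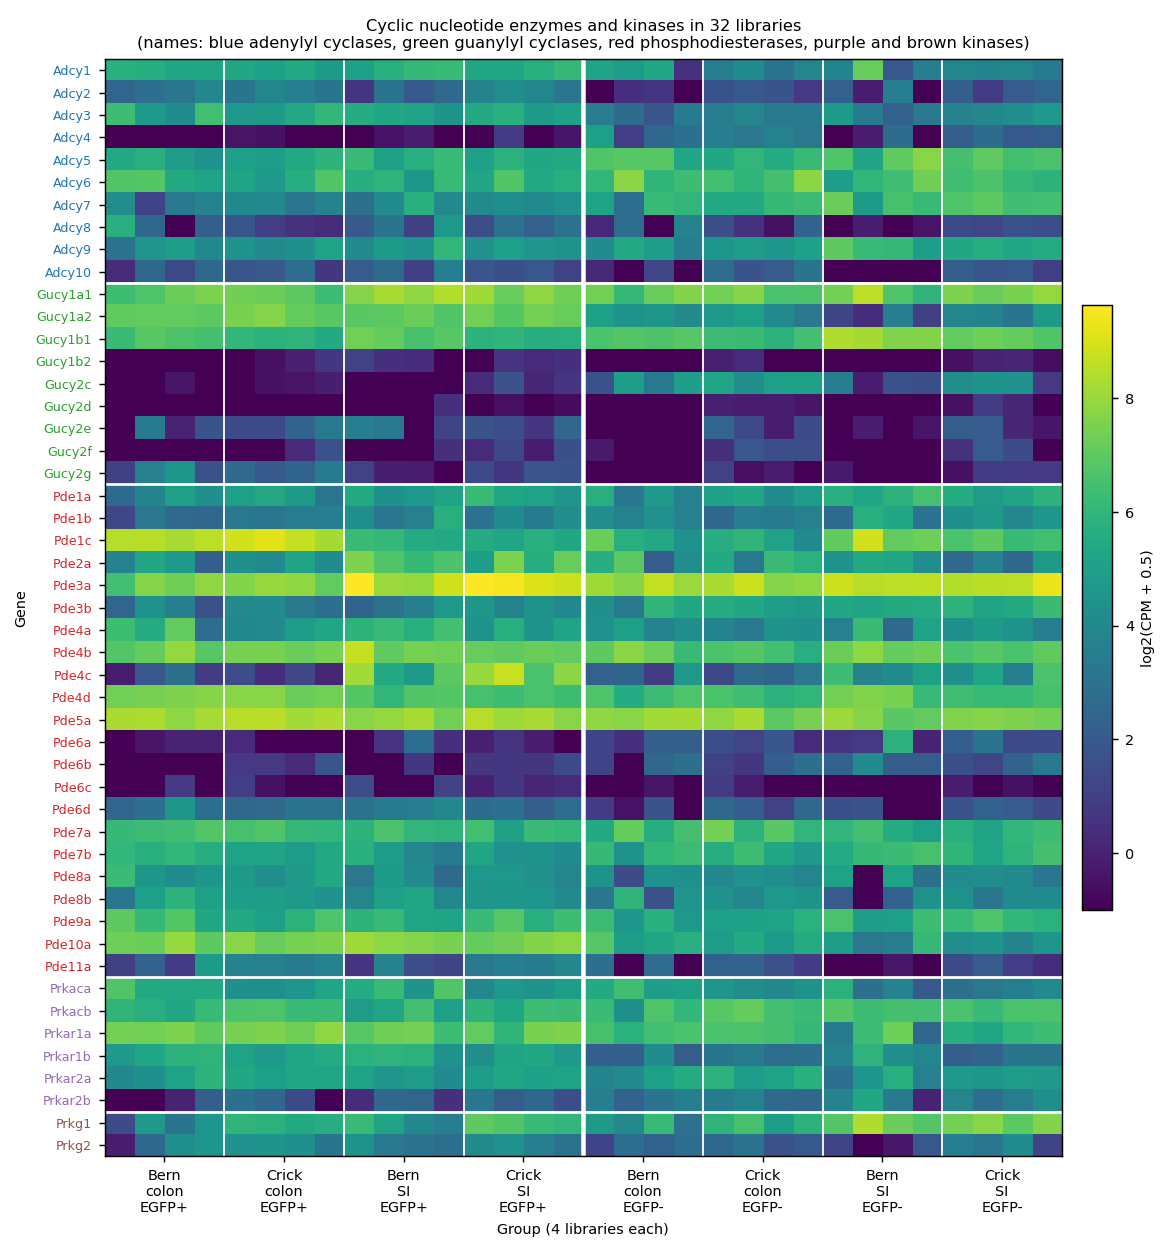
Heat map of the 49 genes (rows, grouped by family) in the 32 libraries (columns, 4 per group), coloured by log2(CPM + 0.5). Pde1c is bright in the 8 colon EGFP+ libraries and Pde4c in the 8 SI EGFP+ libraries, and Gucy1a2 and Pde10a are brighter in all EGFP+ than in EGFP- libraries.

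The first comparison asks which of these genes distinguish neuronal from non-neuronal nuclei, over the 4 combinations of facility and segment. On average over these, neuronal nuclei had more RNA of the soluble guanylyl cyclase subunit Gucy1a2 and the dual-substrate phosphodiesterases Pde10a and Pde11a. On average they also had more of the adenylyl cyclases Adcy1, Adcy2, Adcy3, Adcy8 and Adcy10, though Adcy8 and Adcy10 not in every combination. Non-neuronal nuclei had more of Adcy4, Adcy5, Adcy6, Adcy7 and Adcy9, of Gucy2c, Pde3b and Pde7b, and of the kinase genes Prkg1 and Prkar2b. With edgeR's quasi-likelihood test and Benjamini-Hochberg adjustment over 21521 genes (threshold 0.05), 34 of the 46 genes tested passed, 20 higher and 14 lower in neuronal nuclei. Of all genes 43.5% passed (21.9% higher, 21.6% lower), so this share is read against a high background. The median log2 fold change was 0.40 over the 46 genes and -0.01 over all genes. The 3 not tested, Gucy1b2, Gucy2d and Pde6c, had too few counts.

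All 10 adenylyl cyclases passed, 5 in each direction. Adcy4, a cyclase stimulated by G protein beta-gamma subunits, was at 0 CPM at its lowest and at its median and at 1.34 CPM at its highest in neuronal nuclei, against 0, 5.81 and 32.2 CPM in non-neuronal nuclei. Its log2 fold change was -5.42 ± 0.79 (SE, edgeR adjusted p = 5.94e-07). It had no count in any Bern_ColPos library, where the non-neuronal libraries together had 152 counts, at least 45.97-fold above the floor of 3 counts over the group. Such floors cover counting error only. Adcy7, known from blood cells and macrophages, had a lowest, median and highest level of 1.71, 15.7 and 53.5 CPM in neuronal nuclei, against 6.69, 72.0 and 147 CPM in the non-neuronal sort. It changed by -2.14 ± 0.31 (adjusted p = 2.85e-07), and the libraries overlapped.

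Among the cyclases higher in neuronal nuclei, Adcy10, the soluble bicarbonate-sensitive enzyme, ran from 0.767 through a median of 3.13 to 11.1 CPM in neuronal nuclei, against from 0 through 1.64 to 8.14 CPM in the non-neuronal sort. Its log2 fold change was 2.34 ± 0.59 (edgeR adjusted p = 0.00129). It was at 0 in the whole Bern_SiNeg group, so that Bern SI neurons, at 84 counts, were at least 24.2-fold above the floor. Crick libraries showed no such excess. In Crick colon Adcy10 was at 1.15 to 6.55 CPM in neuronal and 2.79 to 8.14 CPM in non-neuronal libraries. In Crick SI it was at 1.63 to 3.20 and 1.49 to 4.22 CPM, in that order. The part of lower gene detection in Bern was not tested. Adcy2, which G protein beta-gamma subunits stimulate, had 1.04, 8.44 and 18.4 CPM in neuronal nuclei, against 0, 1.98 and 11.5 CPM in the non-neuronal sort (2.08 ± 0.50, adjusted p = 0.00077). The calmodulin-stimulated cyclases Adcy8 (2.04) and Adcy1 (1.15) were also higher, as was Adcy3 (1.82), known from olfactory neurons. Lower were Adcy5 (-1.03) and Adcy6 (-0.67), both inhibited by calcium, and Adcy9 (-0.68). Adcy8 did not pass without the libraries in doubt (adjusted p = 0.0605). Adcy6 lost its call in 11 of the 32 fits that left out 1 library (adjusted p = 0.0508 to 0.0999), and Adcy9 lost it without Bern_ColNeg 2 (-0.58, 0.0558) or Bern_SiNeg 1 (-0.58, 0.0593), without all 6 libraries in doubt (-0.53, 0.141) and with no filter on low counts (-0.67, 0.111).

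Soluble guanylyl cyclase, the nitric oxide receptor, pairs the beta subunit Gucy1b1 with an alpha subunit, Gucy1a1 or Gucy1a2. Gucy1a2 was at 107, 135 and 209 CPM (lowest, median, highest) in neuronal and 0.796, 14.8 and 32.9 CPM in non-neuronal nuclei, with no overlap between the 16 libraries of each sort. Its log2 fold change was 3.41 ± 0.26 (edgeR adjusted p = 1.32e-13). The partner Gucy1a1 did not pass (0.10 ± 0.20, adjusted p = 0.759), with a median of 161 CPM in neuronal nuclei, against 166 CPM in the non-neuronal sort. Gucy1b1 was lower in neuronal nuclei (-0.71 ± 0.14, adjusted p = 7.4e-05). Gucy1a1 and Gucy1b1 lie side by side on chromosome 3 (82092427 to 82145789 and 82032006 to 82074689, both minus strand, GRCm38), and Gucy1a2 is on chromosome 9 (3532778 to 3894736).

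Of the membrane guanylyl cyclases, Gucy2c, the receptor for guanylin peptides and a gene of intestinal epithelium, was 0, 0.101 and 2.85 CPM in neuronal nuclei, against 0.398, 18.6 and 37.2 CPM in the non-neuronal sort. Its fold change of -6.32 ± 0.63 (edgeR adjusted p = 2.64e-10) was the largest of the 46 genes. It had no count in Bern_SiPos, where the non-neuronal libraries were at least 19.3-fold above the floor. Epithelial markers moved with it: all 7 were lower in neuronal nuclei, their sum being 7.89 to 69.3 CPM in EGFP+ and 167 to 11860 CPM in EGFP- libraries, and their part in the result was not tested. A pair of low genes went the other way.

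Gucy2g, an olfactory receptor-type cyclase, was 0, 2.74 and 24.4 CPM in neuronal nuclei, against 0, 0.0929 and 1.56 CPM in the non-neuronal sort (3.92 ± 0.69, edgeR adjusted p = 1.33e-05). Gucy2e, a retinal-type cyclase, was 0, 2.56 and 11.2 CPM against 0, 0.334 and 5.12 CPM (3.28 ± 0.72, adjusted p = 0.000286). Both had no count in Bern_ColNeg, where Bern_ColPos was at least 58.4-fold (Gucy2g) and 19.1-fold (Gucy2e) above the floor, and both overlapped between the sorts. In Crick, Gucy2e was at 1.13 to 9.23 CPM in neuronal and 0.270 to 5.12 CPM in non-neuronal libraries.

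Phosphodiesterases gave 8 higher, 4 lower and 9 not passing of 21 tested. Pde10a, which hydrolyses both nucleotides and is known from striatal neurons, was 129, 185 and 276 CPM in neuronal nuclei, against 8.76, 29.5 and 115 CPM in the non-neuronal sort. Within each combination of facility and segment its neuronal libraries were all above the non-neuronal ones (2.49 ± 0.23, edgeR adjusted p = 2.03e-11). Gucy1a2 and Pde10a were the 2 of 46 genes without such overlap, against 5.81% of all genes. Pde11a, also of dual substrate, was far lower, at 1.04, 9.90 and 27.6 CPM against 0, 1.37 and 6.85 CPM (2.80 ± 0.61, adjusted p = 0.000227).

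Pde6a and Pde6b, the catalytic subunits of the rod photoreceptor enzyme, were both lower in neuronal nuclei and low in CPM. Pde6b was 0, 0.915 and 3.03 CPM in neuronal nuclei, against 0, 3.97 and 17.1 CPM in the non-neuronal sort (-3.66 ± 0.68, edgeR adjusted p = 3.11e-05), with no count in Bern_ColPos, where non-neuronal nuclei were at least 17.2-fold above the floor. Pde6a was 0, 0.420 and 6.59 CPM against 0.513, 2.11 and 56.2 CPM (-3.07 ± 0.70, adjusted p = 0.000431). The third of this family that was tested, Pde6d, which encodes a prenyl-binding protein and not a catalytic subunit, was higher in neuronal nuclei (1.96). Also higher were the cyclic AMP-specific Pde4a (1.03), Pde4d (0.48) and Pde4b (0.45), the calmodulin-stimulated Pde1c (0.70) and Pde5a (0.44). For Pde1c this is an average of opposite directions in colon and SI, as given below. Lower besides the photoreceptor genes were Pde3b (-1.65), known from fat and liver, and Pde7b (-0.81). With relative log expression (RLE) size factors, which moved the median of all genes to -0.11, Pde4b, Pde4d and Pde5a no longer passed (adjusted p = 0.124, 0.0547 and 0.0559). Nor did they pass in edgeR with no filter on low counts (0.1, 0.0984 and 0.065), and Pde4b did not pass with DESeq2 (0.116). Leaving out 1 of 9 libraries also ended the call of Pde4b (0.0618 to 0.11).

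Pde4c, the fourth Pde4 gene, did not pass between the sorts (0.20 ± 0.41, edgeR adjusted p = 0.75). It was at 0.384, 17.3 and 429 CPM in neuronal nuclei, against 1.29, 12.2 and 98.3 CPM in the non-neuronal sort. These averages join unlike segments. In colon it was at 0.384 to 7.13 CPM in neuronal and 1.29 to 25.1 CPM in non-neuronal libraries. In SI it was at 27.5 to 429 CPM in neuronal and 11.3 to 98.3 CPM in non-neuronal libraries. Pde1c was 38.0, 183 and 564.2 CPM in neuronal nuclei, against 16.8, 78.4 and 474 CPM in the non-neuronal sort. In colon Pde1c was higher in neuronal libraries, at 291 to 564.2 CPM against 16.8 to 153 CPM. In SI Pde1c was lower in neuronal libraries, at 38.0 to 76.0 CPM against 73.0 to 474 CPM. Its paralogues Pde1a (-0.39 ± 0.27) and Pde1b (-0.57 ± 0.32) did not pass, nor did Pde3a (-0.14 ± 0.17), Pde7a (0.06), Pde8a (0.49), Pde8b (0.74), Pde9a (0.36) or Pde2a (0.67).

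Kinase subunits divided by isoform. The regulatory subunits of type I, Prkar1b (1.99 ± 0.28, edgeR adjusted p = 2.82e-07) and Prkar1a (1.11 ± 0.27, 0.000711), and the catalytic subunit Prkaca (0.84) were higher in neuronal nuclei. The type II regulatory subunit Prkar2b (-1.95 ± 0.55, 0.00352) and the catalytic subunit Prkacb (-0.50) were lower, and Prkar2a did not pass (0.15). Prkacb lost its call in 13 of 32 fits without 1 library (adjusted p = 0.0512 to 0.0828) and with no filter on low counts (0.146). Of the kinase G genes, Prkg2, the membrane-bound form, was higher (1.67 ± 0.44, adjusted p = 0.0021) and Prkg1, the form of smooth muscle, lower (-1.14 ± 0.29, 0.00154). All 12 smooth muscle markers were lower in neuronal nuclei too, with sums of 506 to 1524 CPM in EGFP+ and 6481 to 25200 CPM in EGFP- libraries, and their part in the Prkg1 result was not tested.

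**Figure D2:**
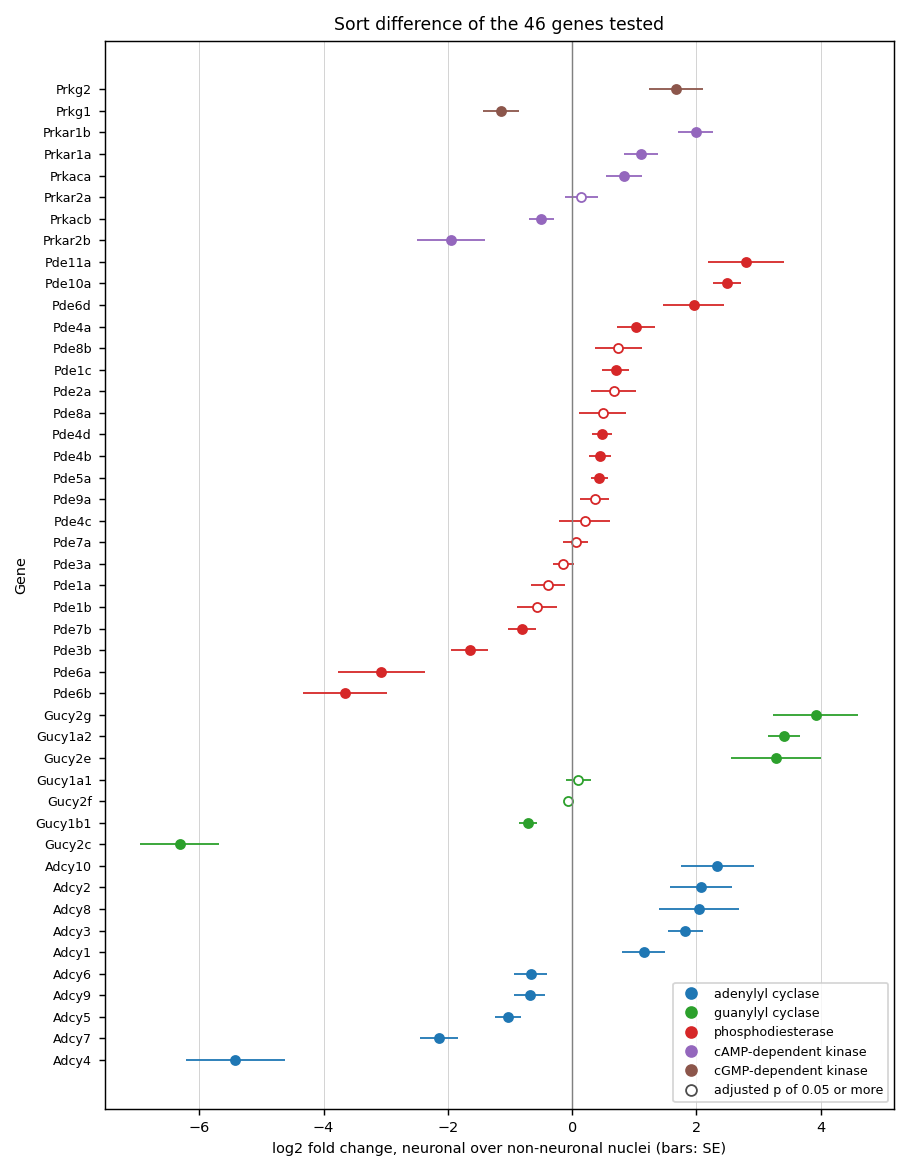
Log2 fold change of neuronal over non-neuronal nuclei (x axis, bars SE) for the 46 genes tested, by family. Filled points passed an adjusted p of 0.05. Gucy2c and Adcy4 lie farthest to the left (-6.32 and -5.42), Gucy2g and Gucy1a2 farthest to the right (3.92 and 3.41), and each family has genes on both sides. No bar is drawn for Gucy2f, whose test statistic was 0.

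Other genes of the pathway moved in both directions between the sorts. Nos1, the neuronal nitric oxide synthase, was higher in neuronal nuclei (3.69 ± 0.36, edgeR adjusted p = 8.68e-11), 1 of 2 synthases tested. Of the 11 other cyclic nucleotide effectors tested 7 were higher and 2 lower, with the highest fold changes in Popdc3, a cyclic AMP-binding membrane protein (4.38), and the channel genes Cngb1 (4.23) and Hcn2 (3.48). Of 7 G protein alpha subunits 4 were higher, led by Gnaz (2.61) and Gnao1 (1.55). Of 6 natriuretic and guanylin genes tested 2 were higher and 3 lower, the largest being the receptors Npr1 (-5.25) and Npr3 (-4.00) and the peptide Guca2a (-4.46). Of the 6 kinase G targets 5 were lower, led by Mrvi1 (-3.79), Pln (-3.60) and Ppp1r12a (-3.15), genes that smooth muscle also expresses, and 1 was higher. A-kinase anchoring proteins gave 4 higher and 2 lower of 11, with Akap2 at -2.76, Akap13 at 1.43 and Akap1 at -1.37. Of the CREB family and coactivators 1 of 8 passed, Crtc1 (0.63). The kinase A inhibitor Pkig (-1.06, 1 of 3), the cyclic nucleotide exporter Abcc5 (1.48, 1 of 2) and, of 5 phosphodiesterase partners, Unc119 (-1.50) and Pde4dip (0.46) passed.

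The second comparison asks how the EGFP+ nuclei of colon and SI differ. They are called neurons here as in the labels, though the SI sort also held markers of other cells, given below. Colon neurons had far less Pde4c and more Pde1c than SI neurons in both facilities, less Pde2a and Pde3a, and more Pde4d. With edgeR on the 16 neuronal libraries, 7 of 41 genes tested passed, 3 higher and 4 lower in colon, against 5.51% of all genes (1.97% higher, 3.54% lower). The 7 were 5 phosphodiesterases and 2 guanylyl cyclases. None of the 9 adenylyl cyclases, 6 kinase A subunits or 2 kinase G genes tested passed, and of these Prkg1 alone had an unadjusted p under 0.05 (-1.02 ± 0.40, adjusted p = 0.152). The median log2 fold change was -0.02 over the 41 genes and -0.01 over all genes. The 8 genes not tested were Adcy4, Gucy1b2, Gucy2c, Gucy2d, Gucy2f, Pde6a, Pde6b and Pde6c.

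Pde4c (chr8:70723720-70751186, plus strand, GRCm38) encodes a cyclic AMP-specific phosphodiesterase. In SI neurons it was at 286, 44.8, 27.5 and 123 CPM in Bern libraries 1 to 4 and at 255, 429, 97.2 and 222 CPM in Crick libraries 1 to 4. In colon neurons it was at 0.384, 3.17, 7.13 and 1.3 CPM in Bern and at 2.35, 0.805, 1.87 and 0.577 CPM in Crick. Every SI library was above every colon library, the lowest SI value (27.5) and the highest colon value (7.13) both being from Bern. The log2 fold change was -6.44 ± 0.56 (edgeR adjusted p = 1.13e-07), with -5.31 ± 0.76 in Bern (0.000346) and -7.58 ± 0.84 in Crick (1.71e-05). Its relatives Pde4a (-0.28 ± 0.39) and Pde4b (-0.18 ± 0.23) did not pass, and Pde4d, the other one, was higher in colon (0.94 ± 0.18, adjusted p = 0.00261). Pde4d had mean levels of 184 (colon) and 93.1 CPM (SI) in neurons, and its colon libraries were above its SI libraries within each facility.

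Pde1c (chr6:56069804-56569103, minus strand) encodes a calmodulin-stimulated phosphodiesterase that hydrolyses both nucleotides. In colon neurons it was at 353, 360, 302 and 386 CPM in Bern libraries 1 to 4 and at 482, 564.2, 411 and 291 CPM in Crick. In SI neurons it was at 76.0, 66.5, 45.7 and 42.3 CPM in Bern and at 46.8, 38.0, 53.8 and 40.6 CPM in Crick. The segments did not overlap, and the spread within each group was small beside the distance between them. The log2 fold change was 2.90 ± 0.20 (edgeR adjusted p = 2.25e-09), with 2.56 ± 0.27 in Bern (7.27e-06) and 3.25 ± 0.28 in Crick (1.04e-06). Pde1a (-0.76 ± 0.38) and Pde1b (-1.32 ± 0.44, adjusted p = 0.0838) did not pass.

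Pde2a, which cyclic GMP stimulates to degrade cyclic AMP, was lower in colon neurons. Its SI values were 188, 108, 70.2 and 101 CPM in Bern and 30.1, 186, 48.7 and 142 CPM in Crick, and its colon values 12.7, 41.4, 27.0 and 4.16 CPM in Bern and 19.5, 15.9, 37.0 and 17.2 CPM in Crick. The segments were apart in Bern, as for 7.45% of all genes, and overlapped in Crick, where the lowest SI library (30.1) was below the highest colon library (37.0). The log2 fold change was -2.37 ± 0.42 (edgeR adjusted p = 0.000916). Within Bern, in the same fit, it was -2.50 ± 0.59 (0.0203) and lost its call without Bern_ColPos 1 (-2.34, 0.0536) or Bern_SiPos 1 (-2.19, 0.0579). Within Crick it was -2.24 ± 0.58 and did not pass (0.0729).

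Pde3a, a cyclic AMP phosphodiesterase that cyclic GMP inhibits, was at 795, 266, 245 and 462 CPM in Bern and 796, 726, 546 and 455 CPM in Crick SI neurons. In colon neurons it was at 86.3, 206, 160 and 231 CPM in Bern and 203, 255, 237 and 137 CPM in Crick. All colon libraries were below the SI libraries of their facility, which within Crick alone held for 12.3% of all genes in 1 direction or the other. The fold change was -1.53 ± 0.25 (edgeR adjusted p = 0.000527), with -1.42 ± 0.36 in Bern (0.0281) and -1.65 ± 0.36 in Crick (0.0221). Without 1 library the call in Bern was lost in 4 fits of 16 (adjusted p = 0.059 to 0.114), among them that without Bern_SiPos 1 (-0.99). The call in Crick was lost in 5 of 16 (0.0674 to 0.0978). Pde4c, Pde1c, Pde3a and Pde4d were the 4 of 41 genes whose segments did not overlap within either facility, against 2.41% of all genes. The paralogue Pde3b did not pass (-0.49 ± 0.46).

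Of the guanylyl cyclases, Gucy1a1 was lower in colon neurons, with mean levels of 129 (colon) and 238 CPM (SI) (-0.91 ± 0.22, edgeR adjusted p = 0.0158). It did not pass without Crick_SiPos 1 (-0.80, 0.0526) or in 1 fit of all 32 libraries (-0.87, 0.0879). Its partners Gucy1b1 (-0.23 ± 0.20) and Gucy1a2 (0.05 ± 0.18) did not pass. Gucy2g was at 1.53, 11.9, 24.4 and 2.60 CPM in Bern and 5.88, 3.42, 4.91 and 9.52 CPM in Crick colon neurons, against 1.55, 0.426, 0.388 and 0 CPM in Bern and 2.08, 1.17, 3.01 and 2.88 CPM in Crick SI neurons. Its segments overlapped in Bern by 1 library and were apart in Crick. Its log2 fold change of 2.64 ± 0.69 (adjusted p = 0.023) lost its call without Bern_ColPos 3 (2.19, 0.0604), Crick_SiPos 1 (2.64, 0.0535) or Crick_SiPos 2 (2.56, 0.0557), and in 1 fit of all 32 libraries (2.69, 0.0575).

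Markers of interstitial cells of Cajal moved with these genes in the neuronal sort. All 5 listed were lower in colon neurons, and their summed level was 264 to 471 CPM in the 8 colon and 662 to 2325 CPM in the 8 SI libraries. Most of the colon sum was Etv1, at 238 to 463.5 CPM in colon neurons. Etv1 was at 32.2 to 201 CPM in EGFP- libraries. The receptor tyrosine kinase gene Kit was at 600, 102, 82.6 and 236 CPM in Bern and 567, 411, 356 and 412 CPM in Crick SI neurons. In colon neurons Kit ran from 0.255 to 19.2 CPM, the chloride channel gene Ano1 from 0 to 8.65 CPM, and Prkcq from 0 to 1.59 CPM. In Crick SI, Kit was at 356 to 567 CPM in EGFP+ and 47.5 to 283 CPM in EGFP- libraries. Prkcq there was at 113 to 231 and 17.0 to 67.3 CPM, in that order. Thbs4 went the other way (4.70 to 12.5 and 13.9 to 50.3 CPM). In Bern SI, Kit overlapped between the sorts (82.6 to 600 and 54.1 to 478 CPM). The 2 SI libraries lowest in Pde4c, Bern_SiPos 2 and 3, were also the lowest in Kit, and Bern_SiPos 1, the highest in Kit, was the second highest in Pde4c. Without Bern_SiPos 1 the fold changes were -6.01 for Pde4c (edgeR adjusted p = 1.66e-07), -1.32 for Pde3a (0.00157) and 2.98 for Pde1c (1.02e-08). Of 12 smooth muscle markers 3 were lower in colon neurons, Smtn (-1.88), Mylk (-1.57) and Myh11 (-1.04), with sums of 506 to 1330 CPM in colon and 641 to 1524 CPM in SI. The pan-neuronal list had 0 of 13 genes past the threshold in this comparison. Mitochondrial share differed as well, at 0.42% to 1.39% in colon and 2.75% to 15.99% in SI neuronal libraries. The part of interstitial-cell RNA, smooth muscle RNA and mitochondrial share in these results and in those of the kinase G targets given below was not tested.

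**Figure D3:**
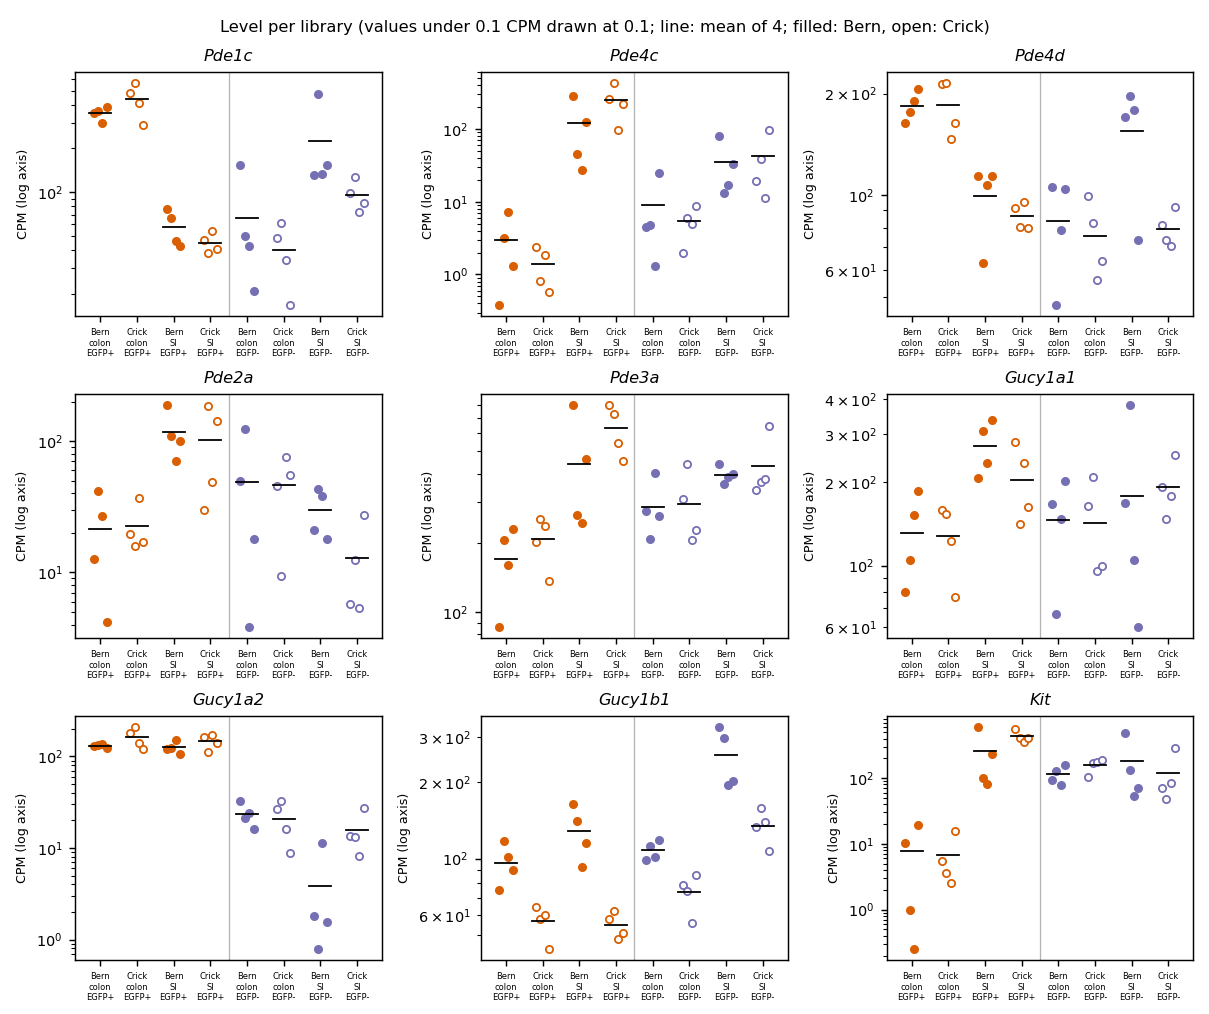
Level per library (CPM, log axis) of 8 genes and of the marker Kit in the 8 groups, with group means as lines, EGFP+ in orange and EGFP- in violet, Bern filled and Crick open. In EGFP+ nuclei Pde1c and Pde4d are higher in colon and Pde4c, Pde2a, Pde3a and Kit higher in SI, whereas Gucy1a2 separates the sorts and not the segments.

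The contrasts within each facility came from the same fit of the 16 neuronal libraries, so they share an estimate of the spread. In Bern 6 of 41 genes passed, against 4.17% of all genes (1.31% higher, 2.86% lower). In Crick 3 passed, against 0.913% (0.333% higher, 0.58% lower). Bern gave Pde4c, Pde2a, Pde3a and Gucy1a1 lower and Pde1c and Gucy2g higher in colon, and Crick gave Pde4c and Pde3a lower and Pde1c higher. Gucy1a1 in Bern was at the threshold (-1.11 ± 0.32, edgeR adjusted p = 0.0499), with 80.2, 105, 153 and 186 CPM in colon and 208, 307, 236 and 336 CPM in SI neurons, and lost its call in 14 of 16 fits without 1 library (0.051 to 0.136). Gucy2g in Bern (3.97 ± 1.04, 0.0341) lost it in 6 of 16 (0.0522 to 0.0952). A direct test of whether the segment difference itself differed between the facilities gave no gene of the 41 (0.00574% of all genes, that is 1 gene), with 2 at an unadjusted p under 0.05, Pde4c (2.27 ± 0.99, adjusted p = 0.739) and Pde9a (1.20 ± 0.58, 0.749). DESeq2 and limma-voom also gave 0.

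**Figure D4:**
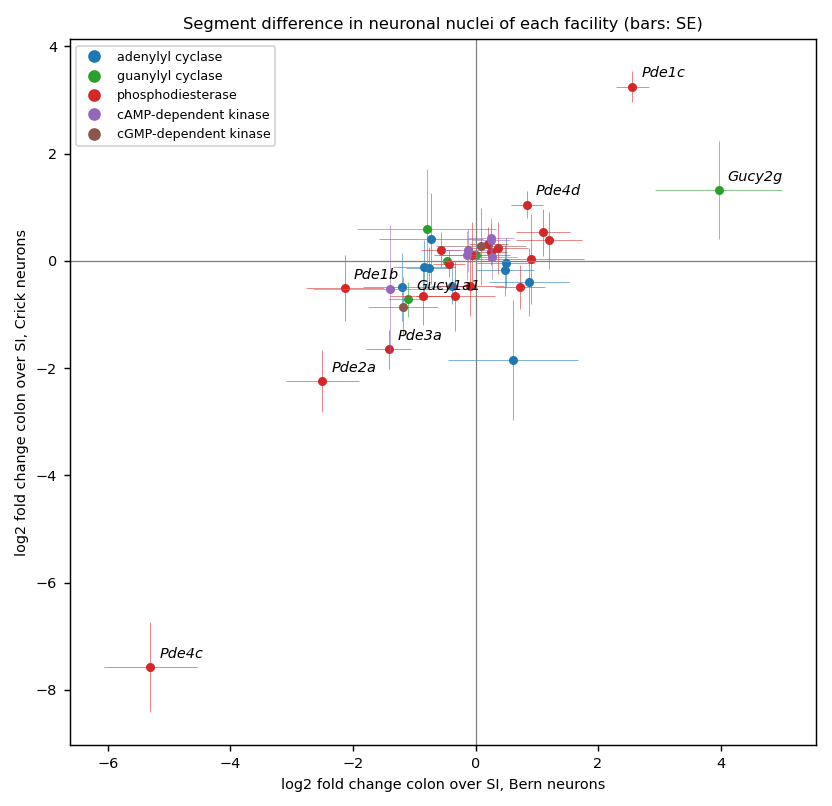
Log2 fold change of colon over SI in neuronal nuclei of Bern (x axis) and Crick (y axis), bars SE, for the 41 genes tested, coloured by family. The axes share no library but come from the same fit, with a shared estimate of the spread. Pde1c lies at 2.56 and 3.25 and Pde4c at -5.31 and -7.58, and most other genes lie near 0 in both.

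Pathway genes around these enzymes mostly did not pass between the segments. Of the 6 kinase G targets tested, Mrvi1 (-2.66, edgeR adjusted p = 0.00109) and Ppp1r12a (-0.63) were lower and Itpr1 (0.80) higher in colon neurons. The cyclic AMP-activated exchange factor gene Rapgef4 (1.38, 0.00369) and Bves (0.74) were higher, 2 of 11 effectors tested. The natriuretic peptide receptor Npr1 (-5.10, 1 of 4) and the anchoring protein Akap9 (-0.69, 1 of 11) were lower. Npr1 had mean levels of 0.102 (colon) and 2.61 CPM (SI) in neurons. No gene passed among 7 G protein alpha subunits, 8 CREB family genes and coactivators, 3 kinase A inhibitors, 5 phosphodiesterase partners, 2 exporters or the 1 nitric oxide synthase tested.

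In non-neuronal nuclei the genes that passed between the segments were all lower in colon, among them Pde4c and Pde1c, which also passed in neurons. With edgeR on the 16 non-neuronal libraries, 5 of 45 genes tested passed, against 9.32% of all genes (5.79% higher, 3.54% lower). Gucy1b2, Gucy2d, Gucy2g and Pde6c were not tested. The median log2 fold change was -0.45 over the 45 genes and 0.02 over all genes.

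Prkg1, the kinase G gene of smooth muscle, was at 27.4, 15.5, 73.2 and 7.30 CPM in Bern and 60.8, 93.5, 31.1 and 56.3 CPM in Crick colon. In SI it was at 109, 330, 145 and 109 CPM in Bern and 171, 212, 124 and 205 CPM in Crick, with no overlap of segments in either facility. Prkg1 and Gucy1b1 were the 2 of 45 genes of which this held, against 2.34% of all genes. Its log2 fold change was -2.12 ± 0.39 (edgeR adjusted p = 0.00159). Prkg2 did not pass (0.30 ± 0.73). Gucy1b1 was at 98.9, 112, 102 and 118 CPM in Bern and 79.0, 74.7, 56.0 and 86.5 CPM in Crick colon, and at 328, 296, 195 and 202 CPM in Bern and 133, 158, 139 and 107 CPM in Crick SI. Again the segments did not overlap within a facility, and the fold change was -1.14 ± 0.21 (0.00167). Its partners Gucy1a1 (-0.45 ± 0.32) and Gucy1a2 (1.43 ± 0.56, adjusted p = 0.109) did not pass.

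Pde4c was lower in colon here too, at 4.45, 4.81, 1.29 and 25.1 CPM in Bern and 2.004, 5.95, 4.91 and 8.85 CPM in Crick. In SI it was at 79.97, 13.1, 16.9 and 32.8 CPM in Bern and 19.4, 38.7, 11.3 and 98.3 CPM in Crick. The segments overlapped in Bern (25.1 in colon against 13.1 in SI). The fold change was -2.52 ± 0.62 (edgeR adjusted p = 0.0129), and without Crick_SiNeg 4 it was -2.04 (0.0552). None of the 5 interstitial-cell markers passed in this sort, and Kit was at 78.8 to 189 CPM in colon and 47.5 to 478 CPM in SI. The 2 SI libraries highest in Pde4c, Crick_SiNeg 4 and Bern_SiNeg 1, were also the highest in Kit (283 and 478 CPM) and in the sum of these markers (880.2 and 1412 CPM, the others 265.5 to 390.6). The part of interstitial-cell RNA in this result was not tested.

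Pde1c was lower in non-neuronal colon, the reverse of its direction in neurons. It was at 153, 49.99, 42.5 and 21 CPM in Bern and 48.3, 61.0, 34.1 and 16.8 CPM in Crick colon, and at 131, 474, 134 and 154 CPM in Bern and 97.9, 128, 73.0 and 83.8 CPM in Crick SI. In Bern 1 colon library, Bern_ColNeg 1 (153), lay among the SI values. That library also had the highest pan-neuronal sum of the EGFP- libraries (1637 CPM), and the part of neuronal RNA in its level was not tested. The fold change was -1.60 ± 0.39 (edgeR adjusted p = 0.0117). Adcy9 was at 17.1, 41.8, 30.4 and 11.4 CPM in Bern and 23.4, 28.2, 23.5 and 33.8 CPM in Crick colon, against 126, 72.0, 66.6 and 30.8 CPM in Bern and 40.5, 49.6, 41.2 and 45.6 CPM in Crick SI. Its fold change of -1.20 ± 0.35 (0.0304) lost its call in 10 of 16 fits without 1 library (0.0564 to 0.0857).

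Cell-type markers differed between the segments in the non-neuronal sort. Of 12 smooth muscle markers 5 were lower in colon, 6 of 13 pan-neuronal, 5 of 7 endothelial and 4 of 7 epithelial markers were higher, and of 10 fibroblast and PDGFRA-cell markers 4 were lower and 1 higher. Summed smooth muscle levels were 6481 to 18910 CPM in colon and 7456 to 25200 CPM in SI. Their part was not tested. Without the 6 libraries in doubt 1 of the 5 genes passed, Pde1c, while Prkg1 (-1.84, edgeR adjusted p = 0.0521), Gucy1b1 (-0.93, 0.0608), Adcy9 (-1.07, 0.173) and Pde4c (-1.84, 0.214) did not. Among pathway genes, the pacemaker channel Hcn4 was lower in colon (-6.94 ± 0.58, adjusted p = 9.83e-08), as were Ppp1r12a (-1.26), Mrvi1 (-1.02), Akap6 (-1.42) and Pde4dip (-0.83). Nos1 (2.36) and Popdc3 (4.74), both higher in neuronal nuclei as well, were higher in colon.

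The test of the segment difference in neurons against that in non-neuronal nuclei passed for 4 of 46 genes, all phosphodiesterases, against 6.48% of all genes (1.09% higher, 5.39% lower). The difference of log2 fold changes, neuronal minus non-neuronal, was 4.45 ± 0.46 for Pde1c (edgeR adjusted p = 2.95e-08) and 1.47 ± 0.32 for Pde4d (0.00368). It was -3.93 ± 0.80 for Pde4c (0.00238) and -3.60 ± 0.73 for Pde2a (0.00225). Pde1c and Pde4c thus had segment differences that depended on the sort, Pde1c with opposite signs and Pde4c with the same sign in both. Pde2a in non-neuronal nuclei was 1.20 ± 0.56 and did not pass (0.187), and Pde4d there was -0.56 ± 0.26 (0.184). Without the libraries in doubt the difference of Pde2a was -2.09 ± 0.74 and did not pass (0.101). Over all genes the median of this difference was -0.22.

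**Figure D5:**
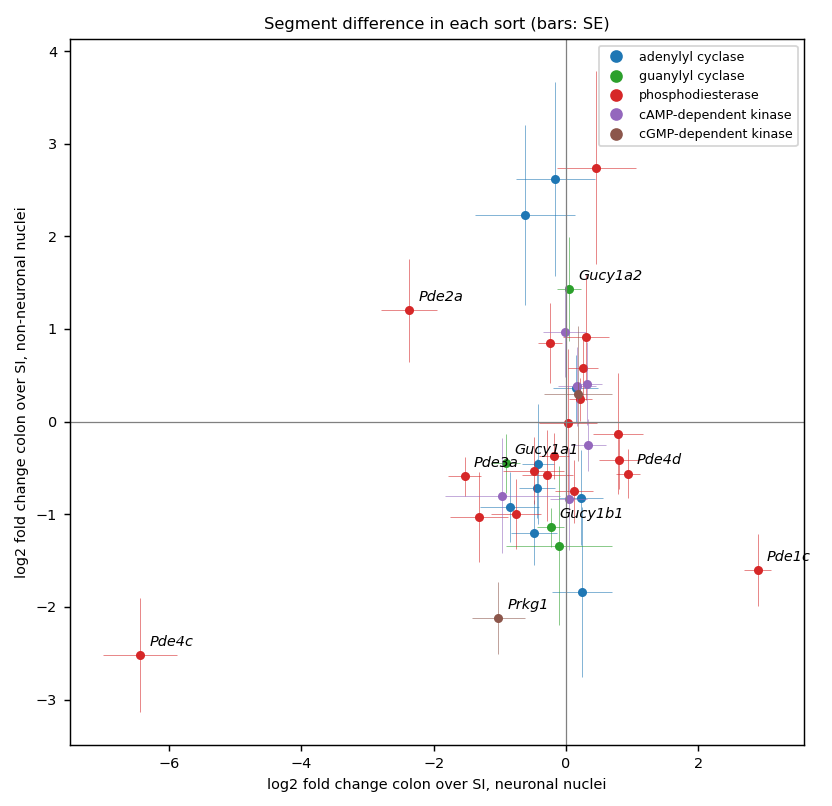
Log2 fold change of colon over SI in neuronal nuclei (x axis) and in non-neuronal nuclei (y axis), bars SE, for genes tested in both sorts, coloured by family. Pde1c is at 2.90 and -1.60, Pde4c at -6.44 and -2.52, and Pde2a at -2.37 and 1.20.

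The last comparisons ask whether the facilities differ. Whatever else differed between the 2 places, gene detection included, went with facility and cannot be told apart from it. In colon neurons no gene of the 41 passed with edgeR, against 3.09% of all genes (1.89% higher, 1.19% lower in Bern), with 5 at an unadjusted p under 0.05, and DESeq2 called 3 (Adcy8, Gucy1b1 and Prkg1). Those 3 had log2 fold changes, Bern over Crick, of 3.35 ± 1.18 (edgeR adjusted p = 0.106), 0.75 ± 0.28 (0.13) and -1.81 ± 0.57 (0.0794). Adcy8 was at 53.7, 5.61, 0 and 4.16 CPM in Bern and 3.06, 1.41, 0.936 and 0.721 CPM in Crick, so that 1 Bern library was far above the rest.

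In SI neurons Gucy1b1 was the 1 gene of 41 that passed, against 0.683% of all genes (0.568% higher, 0.115% lower in Bern). It was at 163, 141, 92.6 and 115 CPM in Bern and 57.7, 62.4, 48.3 and 50.9 CPM in Crick, without overlap, as for 9.47% of all genes (1.21 ± 0.28, edgeR adjusted p = 0.0465). The call was lost in 12 of 16 fits without 1 library (0.0558 to 0.18) and without all libraries in doubt (0.0683), with fold changes of 1.08 to 1.32 over all alternatives. Its alpha partners did not pass. In colon neurons Gucy1b1 was at 75.6, 117, 102 and 90.2 CPM in Bern and 64.7, 57.7, 60.1 and 44.3 CPM in Crick, also without overlap, as for 12.7% of all genes.

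In non-neuronal nuclei 4 of 45 genes passed between the facilities, against 9.29% of all genes (4.35% higher, 4.94% lower in Bern). Gucy1b1 was higher in Bern (0.75 ± 0.21, edgeR adjusted p = 0.025), again without overlap within a segment, as for 2.8% of all genes, so its Bern libraries were above its Crick libraries in all 4 combinations of segment and sort. Without Crick_ColNeg 3 (0.71, 0.0628), Crick_SiNeg 1 (0.75, 0.0547) or Crick_SiNeg 3 (0.76, 0.0531) it did not pass. The other 3 were low genes, lower in Bern. Gucy2f had 1 Bern library with counts (0.342 CPM), against 0.890, 3.16, 2.45 and 2.36 CPM in Crick colon and 0.960, 3.64, 2.25 and 0 CPM in Crick SI (-5.28 ± 1.19, 0.00858). Adcy10 was at 0.685, 0, 1.80 and 0 CPM in Bern colon and 0 in Bern SI, against 6.46, 2.79, 3.68 and 8.14 CPM in Crick colon and 4.22, 3.12, 3.28 and 1.49 CPM in Crick SI (-4.96 ± 1.1, 0.00763). Gucy2e was at 0 in Bern colon and at 0, 0.398, 0 and 0.257 CPM in Bern SI, against 5.12, 2.04, 0.409 and 2.24 CPM in Crick colon and 3.84, 3.64, 0.615 and 0.270 CPM in Crick SI (-4.95 ± 1.08, 0.00707). Against the floor of 3 counts, Crick was at least 11.98-fold higher for Adcy10 in SI, 12.6-fold for Gucy2e in colon and 5.89-fold for Gucy2f in SI. Bern libraries held fewer detected genes throughout, and the part of this in these 3 results was not tested. Without the libraries in doubt none of the 4 passed (adjusted p = 0.0634 to 0.111).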

How the data were processed

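Values for all 32 libraries came from a single gene table in which the authors deposited RSEM expected counts, per the file headers. The build GRCm38 and the programs STAR (2.5.2), RSEM (1.3.0) and DESeq2 (1.10.1) are named, without roles, per the submitters' processing notes. Per the labels' protocols the cDNA was made with the Ovation RNA-Seq System V2 and read as 75-base single ends. Strand use in counting is not given in the sources used here, so reads from an overlapping antisense gene could be counted, and RSEM divides reads shared between similar genes.

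The expected counts were rounded to whole numbers. Symbols and coordinates came from GENCODE M21 (GRCm38), which matched 51719 of 51912 identifiers. Group means were compared by the quasi-likelihood test of edgeR (4.0.16, R 4.3.3) after filterByExpr and TMM scaling, with Benjamini-Hochberg adjustment over all genes tested (threshold 0.05), on 16 libraries per sort or on all 32 across sorts. SE is the fold change divided by the root of the test statistic. The fit was tested on simulated counts. Alternatives were DESeq2 1.42.0, limma-voom (3.58.1), RLE factors, no filter, a replicate block, 1 fit of all 32, and leaving libraries out. Genes with a log2 fold change of at least 1 past the threshold were named with values, up to 12 in the sort comparison and 8 elsewhere, and Pde1c and Pde4c always. Up to 3 genes of each pathway list were named per comparison. The members and lists were chosen with earlier results of these data known. Promoters came from RefSeq (GRCm38.p6), which held 39 of the 49 genes.

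A count of 0 in a whole group allows up to 3 counts, which is 0.127 to 0.239 CPM. Floors cover counting error only. No sample was left out of the main tests, and genes with too few counts were not tested.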

Additional observations from a re-analysis of the deposited data

Results flagged for a closer look

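For 10 genes that changed between segments or led a comparison, each group of 4 libraries was checked for 1 library far from the others (Dixon's test). Of 79 groups 7 held one, where chance gives about 1 in 20 if values are normally distributed. In Bern_SiNeg 2, Pde1c was at 474 CPM (others 131 to 154) and Prkg1 at 330 CPM (others 109 to 145). Without that library the non-neuronal colon-to-SI changes were -1.25 for Pde1c (edgeR adjusted p = 0.029) and -1.85 for Prkg1 (0.00341). In Bern_ColNeg 4, Pde4c was at 25.1 CPM (others 1.29 to 4.81), and without it the change was -3.16 (0.00415). In Crick_SiNeg 4, Pde3a was at 647 CPM (others 339 to 379). In Bern_SiPos 2, Pde4d was at 63.1 CPM (others 107 to 114), and without it the neuronal change was 0.86 (0.00663). Gucy2g was at 0.360 CPM in Bern_SiNeg 1 (others 0) and at 0.192 CPM in Crick_SiNeg 1 (others 1.22 to 1.299). Both values are 1 count, and with the others at 0 any count would be flagged.

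The segment difference itself differed between the sorts, by a test of that difference, for Pde1c (4.45), Pde4d (1.47), Pde4c (-3.93) and Pde2a (-3.60, log2, neuronal minus non-neuronal).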

How the results depend on the processing

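Counts of these genes past the threshold moved by over 1.5 times in 7 comparisons. Colon against SI in Bern neurons gave 6, with 3 in 1 fit of all 32 libraries, 3 with limma-voom and 3 to 6 without 1 library. In Crick neurons it gave 3, with 5 under DESeq2. In non-neuronal nuclei it gave 5, with 8 in 1 fit of all 32, 8 with limma-voom, 1 without the libraries in doubt and 3 to 7 without 1 library. Bern against Crick gave 0 in colon neurons (3 with DESeq2, 2 with no filter, 0 to 2 without 1 library, the 2 being without Bern_ColPos 4), 1 in SI neurons (0 in 1 fit of all 32, with RLE factors, with no filter, with a replicate block and without the libraries in doubt, 0 to 1 without 1 library) and 4 in non-neuronal nuclei (0 without the libraries in doubt). The segment difference between sorts gave 4, with 7 under DESeq2, 7 with limma-voom and 4 to 7 without 1 library, the 7 being without Bern_SiNeg 3. The causes were not tested. Of 64 single calls, 40 held in every alternative run, 24 were lost in at least 1, and none reversed over 2042 alternative results. Over all genes, colon against SI in neurons gave 960 calls (1599 with DESeq2, 1652 with no filter), 727 in Bern (1660, 1411, and 384 with a replicate block) and 159 in Crick (363, 304, 100, 253 with limma-voom and 93 without the libraries in doubt), and 1787 in non-neuronal nuclei (2948 with DESeq2, 2862 in 1 fit of all 32, 764 without the libraries in doubt). Bern against Crick gave 538 in colon neurons (1683 with DESeq2, 1034 with no filter, 164 in 1 fit of all 32, 194 with a block), 119 in SI neurons (397, 328, 43, 43, and 78 without the libraries in doubt) and 1780 in non-neuronal nuclei (2853 with DESeq2, 6373 with no filter, 3176 in 1 fit of all 32, 3122 with limma-voom, 745 without the libraries in doubt). The segment difference gave 1395 between sorts (2198 with DESeq2) and 1 between facilities (35 with DESeq2, 2 with limma-voom, 93 with no filter). Replicate numbers were not taken as pairs, since in no pair of groups did every same-numbered pair of libraries correlate above 0.1 (-0.329 to 0.492 over 40 pairs). Of these 20 of 40 correlated best with their own number. Between the sorts of 1 facility and segment that was 4 of 4 in Bern colon, 3 of 4 in Bern SI, 4 of 4 in Crick colon and 2 of 4 in Crick SI, a hint from the data that numbers may be shared there. With a replicate block the counts, in the order of the text, were 33 between the sorts, 6 for segments in neurons, 4 in Bern, 2 in Crick, 4 in non-neuronal nuclei, 4 for the segment difference between sorts, and 0, 0 and 4 between facilities. The block ended the calls of Prkacb between the sorts (adjusted p = 0.052), Gucy2g between segments in neurons (0.0768) and in Bern (0.119), Pde3a in Bern (0.0929) and Crick (0.0628), Adcy9 in non-neuronal nuclei (0.0506) and Gucy1b1 between facilities in SI neurons (0.0992), and no other single call. In the facility comparisons the block joined Bern and Crick libraries of the same number, which came from mice kept in different places. There 0 of 4 in colon neurons and 1 of 4 in SI neurons correlated best with their own number. The calls and counts under that block therefore do not describe shared animals. In the other comparisons the block also joined same-numbered libraries of colon and SI within a facility. Between those segments 2 of 4 in Bern and 1 of 4 in Crick correlated best with their own number, in either sort. Depth limits genes under about 3 counts per group.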
